A study of Mus musculus with 19 samples.

Results

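Cytoplasmic ribosomal protein genes were examined in single blastocysts with and without Upf2, the adaptor protein of nonsense-mediated mRNA decay (NMD). The members were the genes of the raw count table whose symbol is Rps or Rpl with a number and, where present, the suffix a, x, l, al or l1, together with Rpsa, Rplp0, Rplp1 and Rplp2. Of 86 such genes, 85 had at least 10 counts in at least 1 embryo, among 17137 genes that passed this filter and 41388 in the table. They comprise 32 small subunit (Rps) and 53 large subunit (Rpl) genes. Rps12l1 had at most 4 counts in any embryo and was left out. By annotation 83 of the 85 are protein-coding, Rpl6l is a processed pseudogene and Rps4l a transcribed processed pseudogene.

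The series holds 19 whole embryos at E3.25, each sequenced as a library of its own, 8 Upf2-null (Upf2 -/-) and 11 control (Upf2 +/+). Both groups came from heterozygous crosses on a C57BL/6 background, after hormone-induced ovulation and culture from the zygote in M16 medium. The null allele lacks exons 2 and 3, removed by Cre driven by the E2a promoter, and encodes a truncated protein. Genotype was read from each embryo's own cDNA, and litter and batch were not given in the labels used here, so the p-values measure the spread between these embryos. Upf2 had a lowest, median and highest level of 64.3, 88.7 and 123 CPM (counts scaled to a common library size by edgeR's TMM method) in Upf2-null embryos and 37.2, 55.2 and 87.8 CPM in controls. This count takes in exons outside the deletion and so checks nothing about genotype.

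Ribosomal proteins coat the ribosomal RNA of the small and large subunits, and each is needed in about the same number as the others. In mammals most of their mRNAs begin with a run of pyrimidines, the 5′ terminal oligopyrimidine (TOP) motif, through which mTORC1 and LARP1 adjust their translation together. The blastocyst makes its own ribosomes after the maternal supply from the oocyte has run down. NMD is known to act on some of these genes, which make alternatively spliced transcripts with premature stop codons. Many ribosomal protein genes also carry small nucleolar RNAs (snoRNAs) in their introns.

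Per kilobase of merged exons, the median level of the 85 genes was 78.7 CPM. With the longest coding transcript as the length it was 167 CPM. The highest levels per kilobase were those of Rps15 at 266 CPM, Rplp1 at 261, Rps4l at 261, Rpl4 at 231 and Rpl36 at 231. Rps15 sits in the head of the small subunit, and Rplp1 is a protein of the stalk that recruits elongation factors. The lowest were Rpl3l at 1.26 CPM, Rpl6l at 1.33, Rpl24 at 7.46, Rps15a at 23.5 and Rps24 at 24.2. Rpl3l is a paralogue known from striated muscle, and mutation of Rpl24 causes the Belly spot and tail phenotype in mice. The low place of Rps15a and Rps24 goes with merged exons of 6270 and 6256 bases, against a median of 1739 bases over the members. Reads of genes with near-identical copies, such as processed pseudogenes, may be split or lost, and how the authors' counting treated them is not given in the sources used here. The 95 pseudogenes past the filter with an Rps or Rpl symbol ending in -ps and a number, where present, held 0.0239 to 0.0396% of an embryo's counts. Pseudogenes under other names are not in this sum, and reads lost in counting would not show in it.

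The start sites in RefSeq were searched for a TOP-like run on the sense strand, beginning within 5 bases of the annotated start. Such a run was here a C followed by at least 4 more C or T. Of 63 members with a promoter entry, 29 (46.0%) had such a run, against 23.3% of 11964 genes tested with an entry. In 13 (20.6%) the annotated start itself began a run of that length, against 3.0% of the tested genes. Mitochondrial ribosomal proteins, which are made on the same cytoplasmic ribosomes but are not known as TOP mRNAs, had 25.8% by the first measure and 0 of 66 by the second. Below are the 10 bases before and the 20 bases from the annotated start, on the gene's own strand and in GRCm38.p6, with the run in capitals. The first 4 are core members from the 13 whose annotated start begins a run, and the last 2 are paralogues without a run. The counts of these paralogues are described further on.
Rps15a, chr7:118116128-118116157, minus strand: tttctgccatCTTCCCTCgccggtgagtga
Rpl38, chr11:114668570-114668599, plus strand: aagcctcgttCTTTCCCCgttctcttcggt
Rps6, chr4:86857348-86857377, minus strand: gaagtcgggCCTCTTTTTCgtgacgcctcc
Rplp2, chr7:141447641-141447670, plus strand: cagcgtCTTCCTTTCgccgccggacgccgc
Rpl39l, chr16:10170218-10170247, plus strand: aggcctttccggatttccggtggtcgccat
Rpl10l, chr12:66284382-66284411, minus strand: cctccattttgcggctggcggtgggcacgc
Of 7 paralogues with an entry, 2 had a run and 0 had it at the annotated start. Of the 56 other members with an entry, 27 (48.2%) had a run and 13 (23.2%) had it at the annotated start. Lacking a run was thus not particular to the paralogues. A missing run says only that these letters are not in the window, and annotated starts may lie some bases from those used in the embryo.

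Across embryos the summed raw counts of the 85 genes hardly varied. The sum had a lowest, median and highest value of 60705, 66887 and 68971 in Upf2-null embryos and 61126, 64036 and 68705 in controls. The groups overlapped over nearly their whole range, with means of 66133 ± 2738 (SD, n = 8) and 64317 ± 2689 (SD, n = 11). Library totals ran from 4056072 to 5993745 counts, a range of 1.48-fold, while the member sum ranged 1.14-fold. Their share of the library therefore moved against its size: it was highest in the 3 smallest libraries, Upf2-null embryo 8 (1.58%), control 6 (1.57%) and control 2 (1.55%), and lowest in the largest 2, control 7 (1.10%) and Upf2-null embryo 3 (1.12%). The mean share was 1.35% ± 0.17 (SD, n = 8) in Upf2-null and 1.31% ± 0.15 (SD, n = 11) in control embryos, a difference smaller than the spread within either genotype.

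**Figure D1:**
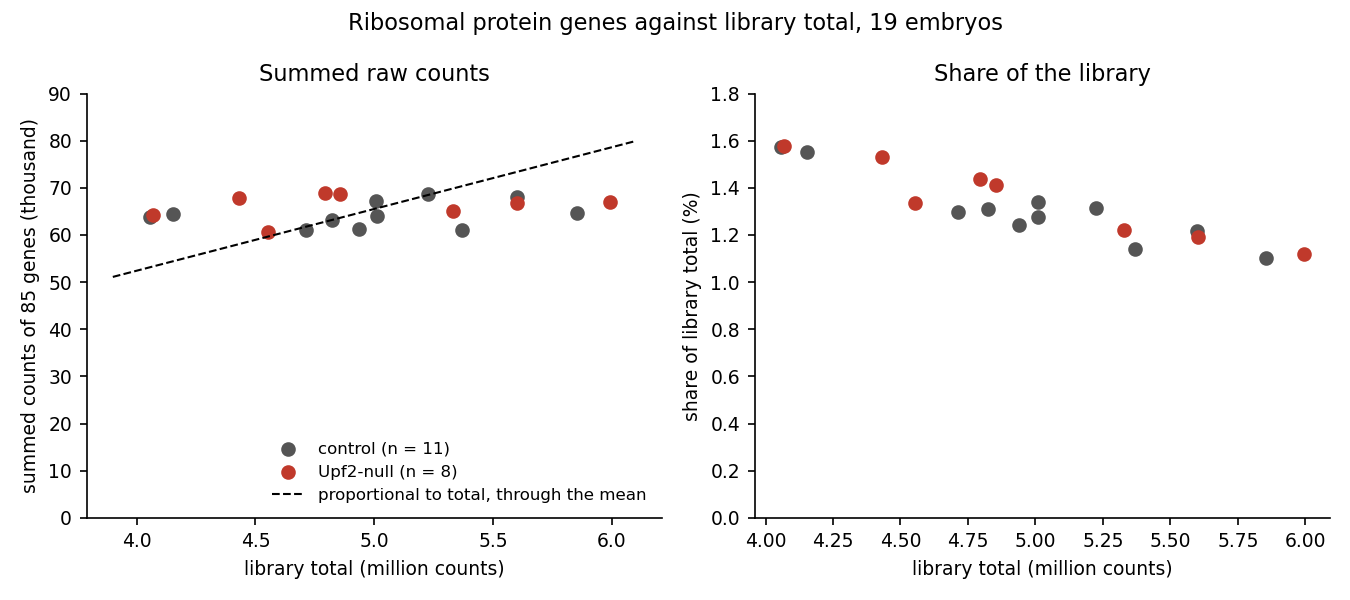
Left, summed raw counts of the 85 ribosomal protein genes against the library total, one point per embryo, with a dashed line for a sum proportional to the total. Right, the same sum as a share of the library total (%). The sums stay between 60705 and 68971 at every library size, and the shares run from 1.58% in a small library to 1.10% in a large one, in control (grey) and Upf2-null (red) embryos alike.

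On log2 scales the member sum had a slope of 0.09 on the library total over 19 embryos, where a slope of 1 means counts in proportion to depth. The slope was 0.09 within Upf2-null and 0.10 within control embryos. The sum of the other genes with a mean of at least 200 counts had slopes of 1.02 and 1.00. Genes at that level, members included, held 90.3 to 93.0% of an embryo's counts, so slopes near 1 were close to fixed in advance. The summed mitochondrial ribosomal proteins had slopes of 0.30 within Upf2-null and 0.55 within control embryos. Gene by gene the median slope of the 85 members was 0.01, with an interquartile range of -0.09 to 0.13, and 82 of 85 lay under 0.5. The 6138 other genes with a mean of at least 200 counts had a median slope of 0.95, and 33.7% of them lay under 0.5. These slopes are descriptions over embryos that differ in depth, and all genes share the same 19 totals.

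The steadiness reached single genes. Rps15, the member with the highest level per kilobase, had a lowest, median and highest raw count of 780, 820 and 877 in Upf2-null embryos and 773, 827 and 855 in controls. Rpl4, a large protein that lines the peptide exit tunnel, had 2150, 2296.5 and 2367 counts in Upf2-null embryos and 2222, 2289 and 2357 in controls. For both genes the genotypes overlapped almost completely, and the highest embryo was 1.13 and 1.10 times the lowest. The median of this ratio was 1.26 over the members and 3.01 over the other well-counted genes. Independent sampling of reads would give a variance equal to the mean in libraries of equal size. The libraries here differed in size, for which independent sampling gives a larger variance. Even so, 7 of 85 members (8.24%) had a variance under the mean. Among them were Rpl35 at 0.62 of the mean, Rps27 at 0.78, Rps15 at 0.81, Rpl19 at 0.93 and Rps23 at 0.95. For the 6138 other genes the variance was under the mean in 8 (0.130%). The median variance was 3.21 times the mean for members and 40.5 times for the others.

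Genes with many counts per kilobase followed depth less in general. Among other genes the median slope was 1.33 up to 100 counts per kilobase of merged exons, 1.14 from 100 to 200, 0.83 from 200 to 400, 0.45 from 400 to 800 and 0.19 above 800. The members lay under the others in each bin that held any with a mean of at least 200 counts, with medians of -0.09 (8 genes), 0.02 (36), 0.01 (25) and 0.03 (12) from the second bin up. In bins by longest coding transcript the members again had medians from -0.11 to 0.03, and other genes from 0.25 to 1.43. PCR duplicates had been removed before counting, and no gene exceeded 4884 counts in any library. The part of that step in the flat counts was not tested.

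**Figure D2:**
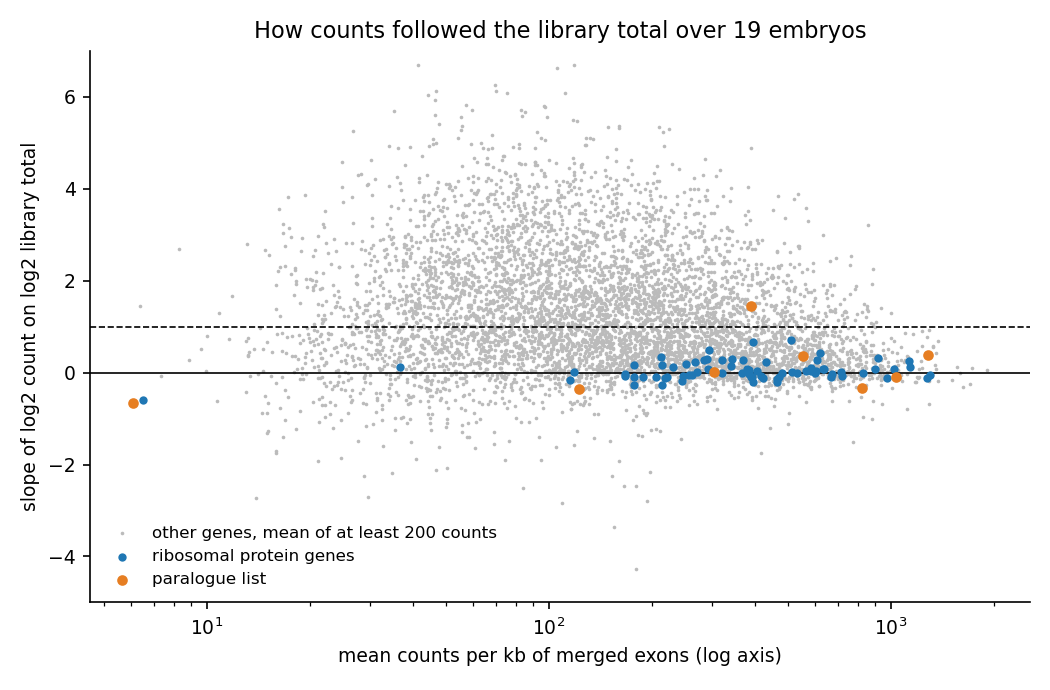
Slope of log2 count on log2 library total over 19 embryos, against mean counts per kilobase of merged exons (log axis). Grey points are other genes with a mean of at least 200 counts, blue points the ribosomal protein genes and orange points their 8 listed paralogues; the dashed line at 1 marks counts in proportion to depth. Nearly all blue points lie close to 0 at every density, and Rpl10l is the orange point above 1.

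Of the 85 members, 3 exceeded a slope of 0.5. Rpl10l reached 1.46, Rps6 0.72 and Rps9 0.67. Rps6, whose phosphorylation by S6 kinase is a common readout of mTORC1, had a lowest, median and highest raw count of 690, 811.5 and 989 in Upf2-null embryos and 695, 767 and 968 in controls. Rps9 had 895, 996 and 1154 in Upf2-null embryos and 731, 995 and 1153 in controls. Neither gene separated the genotypes. Mitochondrial ribosomal proteins stood between the members and other genes, with a median slope of 0.24 over 75 genes. Translation elongation factors and other TOP mRNAs had 0.34 over 18 genes, and ribosome biogenesis factors 0.90 over 62.

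For genotype, none of the 85 genes passed the test of Upf2-null against control embryos (edgeR quasi-likelihood on all 17137 genes, Benjamini-Hochberg adjusted p under 0.1). That is 0 higher against 0.175% of all genes tested and 0 lower against 0.0175%. At an unadjusted p under 0.05, 1 member (Rps15a) was higher, where 5.15% of all genes were, and 0 were lower, where 7.38% were. Among the 6219 genes with a mean of at least 200 counts the shares were 5.03% higher and 4.66% lower. DESeq2 also called 0 members, with 0.595% of genes higher and 0.432% lower, and 1 member was higher at an unadjusted p under 0.05 (background 3.51%) and 0 lower (4.68%). Limma voom called 0, with 0.525% of genes higher and 0.14% lower. In 0 members did the CPM of the genotypes not overlap, against 0.0934% of genes, and for raw counts the values were 0 and 0.0875%.

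The log2 fold changes, always Upf2-null minus control, were above 0 for 54 members and below 0 for 31. Over all genes tested 8172 lay above 0 and 8965 below, and over genes with a mean of at least 200 counts 2907 and 3312. The members' median was 0.02, where the median over all genes tested was -0.02. Without Upf2-null embryo 8 the members' median was -0.02. Of the 85, 72 lay within 0.1 of 0 on the log2 scale. The intervals were narrow: the 95% interval stayed within 1.5-fold either way for 81 members, which include all 32 Rps genes, and within 2-fold for 82. The exceptions at 1.5-fold were Rpl24, Rpl10l, Rpl3l and Rpl6l. The median standard error was 0.09 for members, 0.47 for all genes and 0.17 for the 6219 genes with a mean of at least 200 counts. Of those 6219 genes, 3680 had intervals within 1.5-fold. Mitochondrial ribosomal proteins had a median of 0.10, with 73 of 75 within 1.5-fold. Elongation factors and other TOP mRNAs had 0.08, with 17 of 18. The members' limits apply to counts that hardly followed library size, and how closely such counts track mRNA levels was not tested. Rps and Rpl genes had medians of 0.01 and 0.02, and the difference between the subunits was not tested. The epiblast markers checked (Nanog, Sox2, Pou5f1, Fgf4, Klf2 and Esrrb) summed to 292 to 397 CPM in Upf2-null and 378 to 637 CPM in control embryos, ranges that overlap in part. Nanog, Pou5f1, Fgf4 and Klf2 had log2 fold changes below 0 and Sox2 and Esrrb above, with 0 of the 6 past the threshold by edgeR. By DESeq2 Nanog (adjusted p = 0.0277) and Fgf4 (0.0577) passed it and the others did not. By limma voom none passed, with Nanog lowest at an adjusted p of 0.171. The part of these markers in the members' values was not tested.

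**Figure D3:**
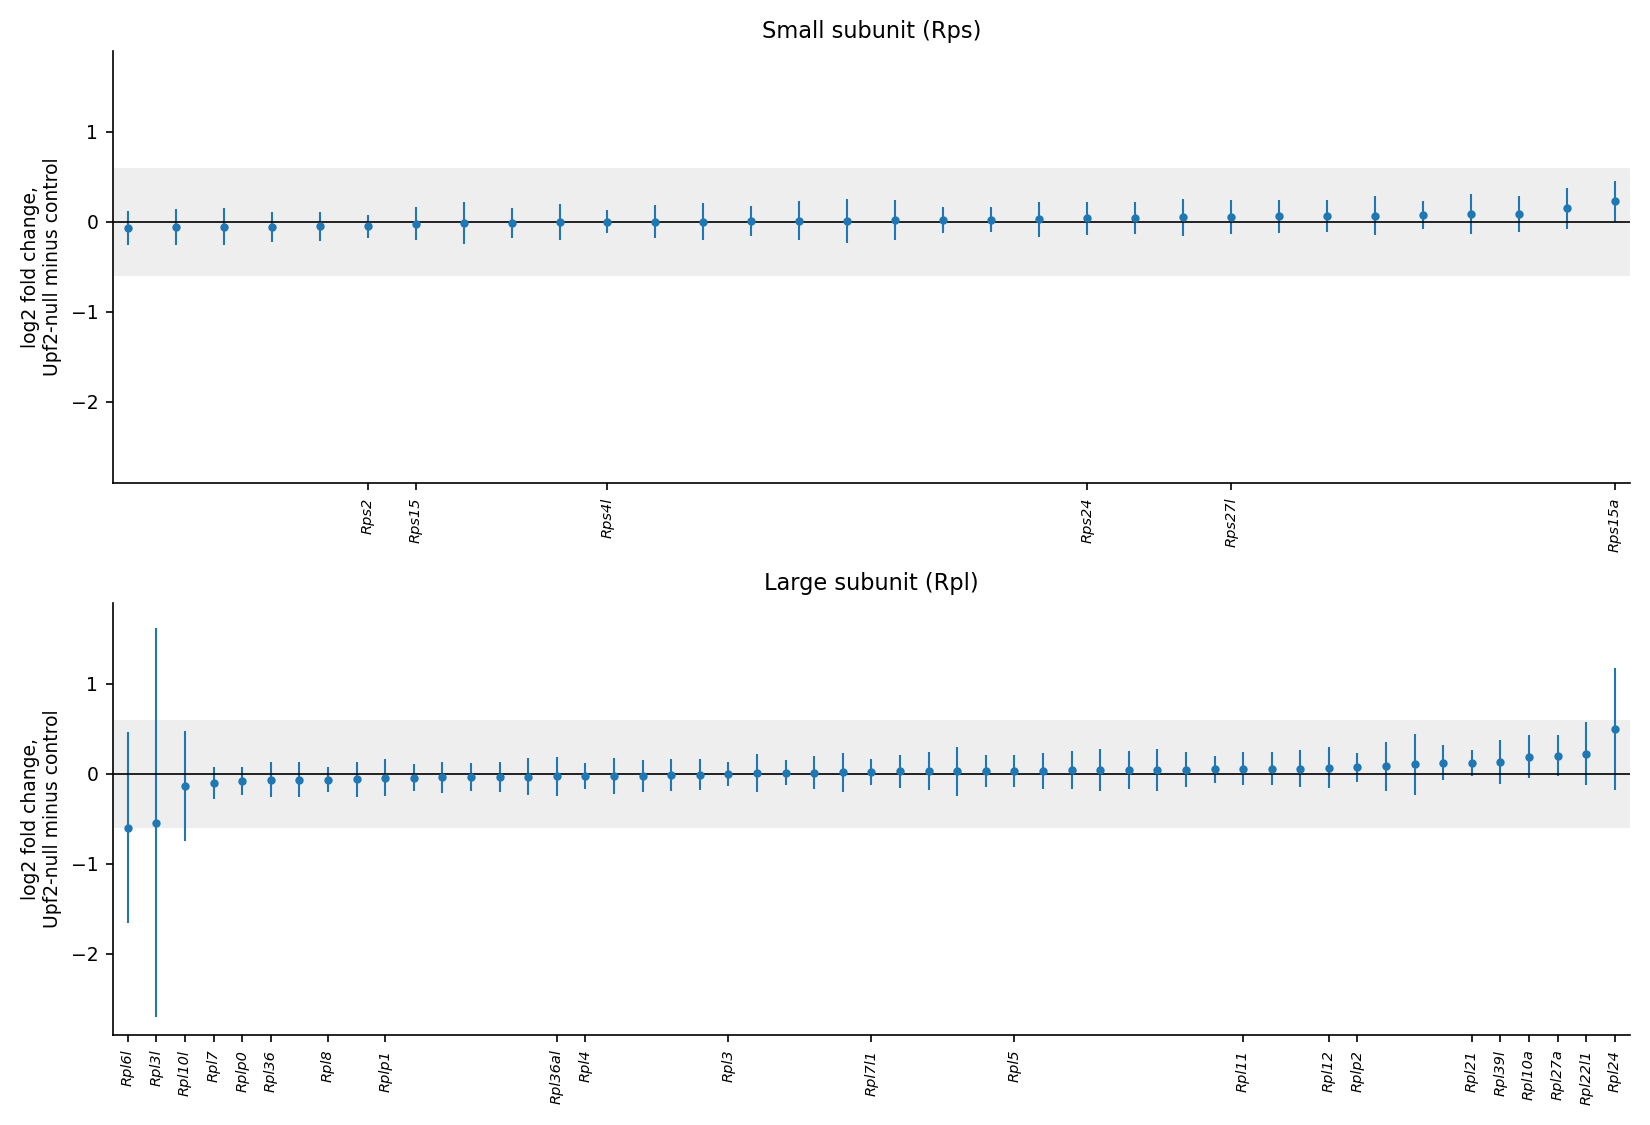
Log2 fold change, Upf2-null minus control, of each of the 32 Rps (top) and 53 Rpl genes (bottom), ordered by value, with gene names under the members chosen by the naming rule. Points are edgeR estimates from 8 and 11 embryos, bars their 95% intervals, and the grey band marks 1.5-fold either way. Apart from Rpl6l, Rpl3l, Rpl10l and Rpl24, every interval stays inside the band.

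Since raw counts hardly followed the totals, dividing by the library size moves the members' levels with depth. The fit was therefore repeated without any library scaling, a choice made after seeing the data. The median log2 fold change of the members was then 0.04, with 61 above 0 and 24 below. That of all genes was -0.00013, with 8558 above 0 and 8571 below. No member passed the threshold in this fit either (background 0.163% higher and 0.0117% lower). At an unadjusted p under 0.05, 6 members were higher (Rps15a, Rpl27a, Rpl23, Rpl21, Rpl10a and Rpl39l), which is 6 of 85 where 5.5% of all genes were, and 0 were lower, where 6.12% were.

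Rps15a, a small subunit gene on chromosome 7, had the lowest p. Its lowest, median and highest raw counts were 697, 784 and 889 in Upf2-null embryos and 562, 665 and 768 in controls. The ranges overlapped, with all 8 Upf2-null embryos above the median control by raw count and 7 of 8 in CPM. Its log2 fold change was 0.23 ± 0.11 (SE), with an unadjusted p of 0.0487 and an adjusted p of 0.395 by edgeR. Without scaling it was 0.25, with an adjusted p of 0.270 by edgeR. Its annotated start begins with the 8-base pyrimidine run shown above.

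Rpl27a, the gene mutated in the Sooty foot ataxia mouse, was the next. Its lowest, median and highest raw counts were 442, 493 and 577 in Upf2-null embryos and 358, 430 and 493 in controls, so that the upper part of the controls overlapped the lower part of the nulls. All 8 Upf2-null embryos were above the control median in CPM, at a log2 fold change of 0.20 ± 0.11 (SE) and an edgeR adjusted p of 0.498. The same held for Rpl23, a protein at the subunit interface, at 0.12 ± 0.09 (SE) and an edgeR adjusted p of 0.707. No member was below the control median in all 8. The share of all genes with 8 of 8 on a side was not counted, so these 2 and 0 members cannot be read as a trait of the set. By raw count further members, among them Rpl11 and Rpl39l, also had all 8 Upf2-null embryos above the median control.

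Rpl21 had 889, 1065.5 and 1208 counts in Upf2-null embryos and 847, 945 and 1079 in controls, overlapping widely, at a log2 fold change of 0.12 ± 0.07 (SE). Rpl24 had 29, 42 and 82 counts in Upf2-null embryos and 20, 28 and 49 in controls, with a variance 5.80 times its mean, and its log2 fold change of 0.50 had a standard error of 0.33. On the other side, the members with the lowest p-values below 0 were Rpl6l at -0.60, Rpl7 at -0.10, Rplp0 at -0.07, Rpl8 at -0.06 and Rps2 at -0.05. Rpl6l had between 2 and 15 counts in any embryo. Rpl7 had 1007, 1061 and 1160 counts in Upf2-null embryos and 1033, 1124 and 1220 in controls, and the lowest p of these 5 was 0.254 before adjustment in the edgeR fit. All overlapped between genotypes.

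**Figure D4:**
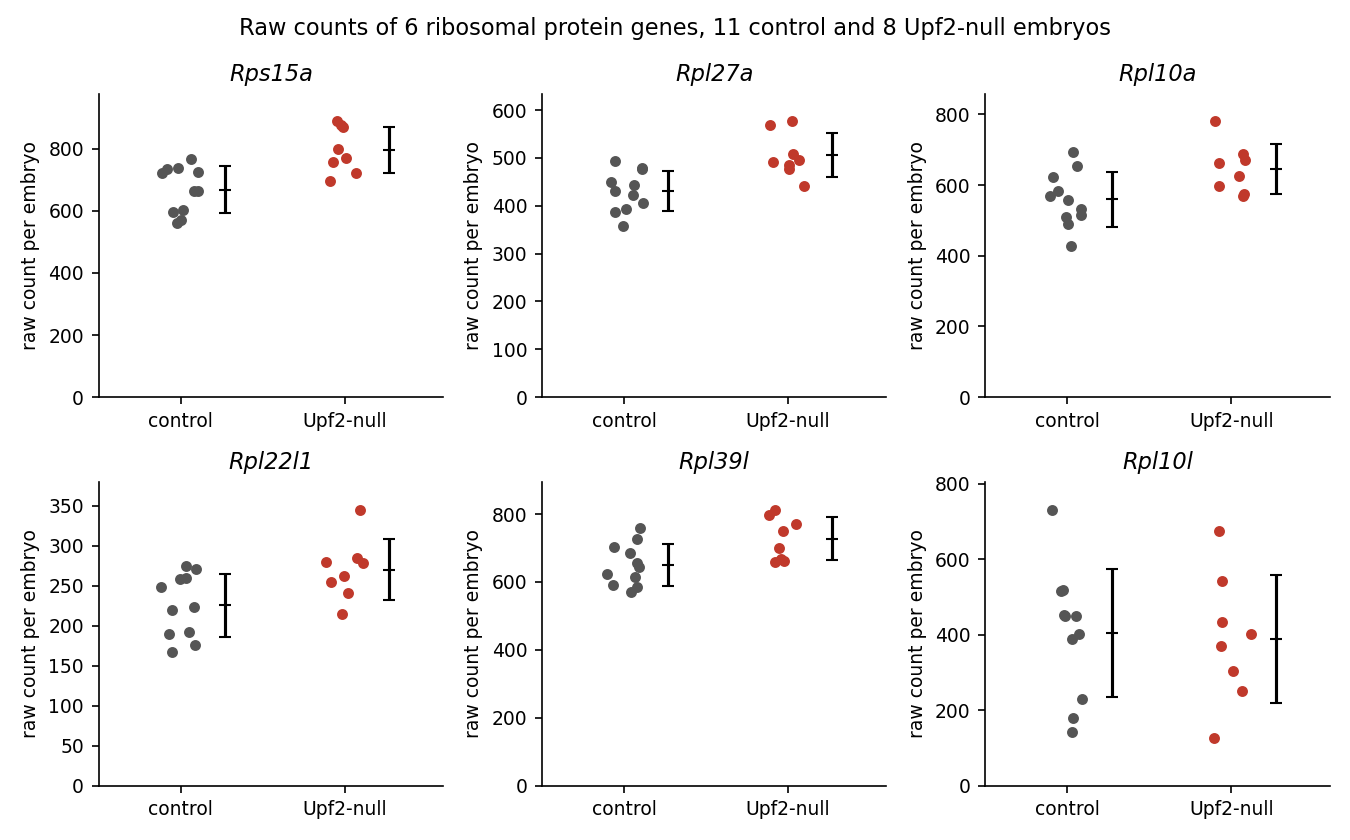
Raw counts per embryo of Rps15a, Rpl27a, Rpl10a, Rpl22l1, Rpl39l and Rpl10l in 11 control (grey) and 8 Upf2-null (red) embryos, with the mean and SD beside each group and each axis starting at 0. The genotypes overlap in all 6 genes, and Rpl10l spreads from 126 to 732 counts within them.

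Rpl3, Rpl10a and Rpl12 are known from worms or human cells to make spliced transcripts that NMD degrades, in part under feedback by their own proteins. Rpl10a had 570, 644.5 and 781 counts in Upf2-null embryos and 428, 559 and 695 in controls. By raw count all 8 Upf2-null embryos exceeded the median control and in CPM 5 of 8 did, at a log2 fold change of 0.19 ± 0.12 (SE) and an edgeR adjusted p of 0.577. Rpl12, a base of the stalk, had 721, 778 and 943 counts in Upf2-null embryos and 618, 765 and 843 in controls, at 0.07 ± 0.11 (SE). Rpl3, which reaches to the peptidyl transferase centre, had 1330, 1375.5 and 1428 counts against 1237, 1359 and 1430, at 0.0012 ± 0.07 (SE). Counts per gene do not separate the degraded isoforms from the productive ones.

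The annotation gives 19 members (22.4%) at least 1 transcript of the NMD class, and 22.2% of all genes tested. Of these 19 members, 15 had log2 fold changes above 0 and 4 below, with a median of 0.05. The other 66 members had 39 above and 27 below, with a median of 0.01. All 3803 genes with such a transcript had 1901 above and 1902 below, with a median of -0.00028. The difference between these sets was not tested. A snoRNA lies inside 29 members (34.1%) on the same strand, and inside 1.42% of all genes tested. Those 29 had a median of 0.03 and the members without one 0.01, where all 243 such genes had 0.02. The authors' transcript assembly over all embryos held a structure outside the reference annotation for 79 members (92.9%) and for 56.4% of all genes tested. These models carry no values per embryo, so isoforms could not be compared between genotypes.

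The stalk proteins Rplp0, Rplp1 and Rplp2 recruit the elongation factors to the ribosome. Rplp0 had 1405, 1451.5 and 1541 counts in Upf2-null embryos and 1460, 1498 and 1580 in controls, Rplp1 585, 639.5 and 677 against 592, 648 and 690, and Rplp2 717, 790 and 870 against 676, 746 and 833. All 3 overlapped, at log2 fold changes of -0.07, -0.04 and 0.07. Rpl5 and Rpl11 enter the large subunit with 5S RNA and, outside it, bind and restrain MDM2. Rpl5 had 772, 870 and 956 counts in Upf2-null embryos and 734, 815 and 936 in controls, and Rpl11 664, 704.5 and 768 against 583, 663 and 763. Their log2 fold changes were 0.03 ± 0.08 and 0.06 ± 0.09 (SE), neither past the threshold.

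Several ribosomal proteins have a second gene, and 8 such paralogues passed the filter. Of these, 4 are autosomal relatives of the only members on the X chromosome, Rpl10, Rpl39, Rpl36a and Rps4x. Per kilobase of merged exons Rpl39l, known from testis and embryonic stem cells, stood at 177 ± 23.4 CPM (SD) in Upf2-null and 162 ± 33.0 CPM in control embryos, above Rpl39 at 55.4 ± 7.78 and 52.2 ± 10.5 CPM. Rps4l, at 261 ± 25.03 and 261 ± 16.4 CPM, was above Rps4x at 120 ± 10.5 and 125 ± 21.7 CPM. Rpl36al, at 61.2 ± 6.97 and 62.3 ± 7.85 CPM, stood beside Rpl36a at 78.8 ± 9.20 and 76.5 ± 15.7 CPM. Rpl10l, at 74.5 ± 28.3 and 82.1 ± 41.6 CPM, stood beside Rpl10 at 96.8 ± 11.98 and 94.2 ± 19.8 CPM. These comparisons depend on the length used. Per kilobase of the longest coding transcript, over all embryos, Rpl10l was at 78.9 and Rpl10 at 229 CPM, Rpl36al at 65.6 and Rpl36a at 266, and Rpl39l at 174 and Rpl39 at 126, while Rps4l has no coding transcript. Shared sequence within each pair makes the split of their reads uncertain.

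Rpl10l, a retrogene known for its role in male meiosis, was the most variable of the well-counted members. Its lowest, median and highest raw counts were 126, 387 and 674 in Upf2-null embryos and 143, 450 and 732 in controls. Its variance was 68.7 times its mean, while Rpl10 ranged only from 798 to 1110 counts with a ratio of 11.4. The genotypes overlapped throughout, at a log2 fold change of -0.14 ± 0.29 (SE), and this value turned to 0.12 without control embryos 2 and 4.

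Among the other paralogues, Rpl22l1 had 215, 270 and 345 counts in Upf2-null embryos and 167, 223 and 274 in controls, at a log2 fold change of 0.22 ± 0.17 (SE) and an edgeR adjusted p of 0.702. Rpl22l1 is known to be repressed by Rpl22 through its splicing, and Rpl22 itself was at 0.04 ± 0.10 (SE). Rpl39l had 660, 724.5 and 813 counts in Upf2-null embryos and 570, 643 and 759 in controls, at 0.13 ± 0.12 (SE). In both paralogues 7 of 8 Upf2-null embryos exceeded the median control in CPM, and the groups overlapped. Rps27l, a p53 target, was at 0.05, Rpl7l1 at 0.02, Rps4l at 0.00049 and Rpl36al at -0.03. Rpl3l had 0 to 28 counts in Upf2-null embryos and 0 to 41 in controls, at a log2 fold change of -0.54 ± 1.04 (SE).

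Of 4 ribosomal proteins outside the naming rule, 1 lay above 0 and 3 below on the log2 scale, with a median of -0.03 and 0 called. Ribosome biogenesis factors had 17 of 62 genes above 0 and 45 below, with a median of -0.09 and 0 called, and the lowest p above 0 was that of Sbds, a factor that frees the large subunit, at 0.21 (edgeR adjusted p = 0.264). Elongation factors and other TOP mRNAs had 3 genes above 0 and 15 below with a median of -0.04. Import and assembly chaperones had 4 and 4 (median -0.06), mTORC1 and TOP translation control 7 and 10 (-0.07), ribosomal stress and MDM2 genes 3 and 5 (-0.07), and ribosome quality control 7 and 5 (0.02). EdgeR called 0 genes in each of these lists. Larp4, an mRNA-stabilising protein of the mTORC1 and TOP list, had its lowest p, at -0.82 ± 0.27 (SE) and an edgeR adjusted p of 0.262, with 0 of 8 Upf2-null embryos exceeding the median of the controls.

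Mitochondrial ribosomal proteins had 57 of 75 genes above 0 and 18 below, with a median of 0.05. EdgeR called 0 of them, while DESeq2 and limma voom each called 1. Mrpl49, the gene with the lowest p above 0, was at 308 ± 22.9 CPM (SD, n = 8) in Upf2-null and 250 ± 32.5 CPM (SD, n = 11) in control embryos, at a log2 fold change of 0.30 ± 0.08 (SE). Its adjusted p was 0.140 by edgeR, 0.0233 by DESeq2 and 0.00687 by limma voom, and 8 of 8 Upf2-null embryos exceeded the median of the controls. The Rps and Rpl pseudogenes had 44 of 95 above 0 and 51 below, with a median of -0.02 and 0 called.

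Markers of the other cell types overlapped between genotypes wherever they were detected in both. Trophectoderm markers (6 of 6 genes past the filter) summed to 918 to 1444 CPM in Upf2-null and 747 to 1613 CPM in control embryos, and primitive endoderm markers (5 of 5) to 131 to 228 and 95.1 to 229 CPM. Oocyte transcripts (4 of 4) summed to 0.531 to 30.7 and 0.442 to 72.6 CPM. Of 8 cumulus and granulosa cell markers 0 passed the filter, and of 3 blood markers 1, with sums up to 3.80 CPM in Upf2-null embryos and 0 in controls.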

How the data were processed

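Each embryo gave full-length cDNA (SMARTer v4) and a Nextera XT library, sequenced paired-end. Per the labels and the study's methods, the authors used STAR 2.5.2a for alignment to GRCm38, SAMtools for taking out PCR duplicates and featureCounts for the deposited raw counts of each gene. The settings for multimapping reads and strand are not given in the sources used here. Merged transcript models (StringTie 1.3.3b) were read for exon structures alone, and a table of the same counts times 1 factor per embryo was not used.

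Counts were tested as deposited with edgeR 4.0.16 (R 4.3.3): TMM, robust quasi-likelihood fit on genotype, all 19 embryos, genes reaching 10 counts in any embryo, adjusted p under 0.1. CPM are TMM-normalized. Slopes used log2(count + 0.5). DESeq2 1.42.0 and limma 3.58.1 (voom with quality weights) were alternatives. Library totals were 4056072 to 5993745 counts. No pair of embryos of a genotype agreed within sampling noise (chi-square per gene at least 7.80). Symbols, lengths and transcript classes came from GENCODE M21, start sites from RefSeq. Scripts were tested on simulated counts.

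The members and lists were chosen with earlier results of these data known. Members are named if among the 5 lowest p on either side, the 5 highest or lowest levels per kilobase, or in the paralogue, stalk, 5S or NMD-coupled lists; genes of other lists if they had the lowest p on their side. Rpl35, Rps27, Rpl19, Rps23, Rps6, Rps9, Rpl23, Rpl38, the X-linked genes and Rpl22 were named after their values were seen. Some single-gene results are not reported here.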

Additional observations from a re-analysis of the deposited data

Results flagged for a closer look

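In CPM, Upf2-null embryo 8 lay far above the other Upf2-null embryos for 2 of the genes described, Rpl36 at 103.201 CPM (the next embryo at 88.8, the lowest at 76.3) and Rps2 at 267.277 CPM (the next at 233, the lowest at 209). These 2 came from 30 groups of values examined, and chance alone gives such a gap in about 1 in 20 groups. Embryo 8 had the smallest Upf2-null library, with 4068350 counts, and the highest share of ribosomal protein counts. The part of library size in both values was not tested.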

How the results depend on the processing

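In every alternative tried 0 members passed the threshold in either direction, and the lowest adjusted p of a member was 0.248 (Rps15a, limma voom). Members higher at an unadjusted p under 0.05 numbered 7 by limma voom (5% of all genes), 2 with library totals alone (5.67%), 6 without scaling (5.5%), 4 with the log2 total as covariate (5.19%), 3 without control embryos 2 and 4 (5.1%), 5 without control 2, 4 and 5 (5.41%), 0 without robust fitting (5.15%) and 0 with a replicate block (1.84%). Without single embryos this count ran from 0 to 3 (4.47 to 5.54% of all genes) and the members' median from -0.021 to 0.054, below 0 without Upf2-null embryo 4 or 8 or control 1 or 7. The mean share of a group with 1 of its embryos left out ran from 1.28 to 1.33% in controls and 1.32 to 1.39% in Upf2-null embryos. The fits without scaling, with the covariate and without several controls were chosen after seeing the data. The replicate numbers paired no samples: correlations of same-numbered embryos ran from -0.216 to 0.100, over 0.1 in 1 of 8 pairs.

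Fold changes of 9 named members changed sign, among them Rpl10l (-0.14) and Rpl3l (-0.54) and otherwise values near 0, and the cause was not tested. By limma voom Rpl10l became 0.021, Rpl36al 0.030, Rpl4 0.033, Rplp1 0.013, Rps15 0.041 and Rps4l -0.0020. By DESeq2 Rpl3 became -0.0025 and Rps4l -0.0041, and with its size factors -0.0024 and -0.0038. With library totals alone Rpl36al became 0.0076, Rpl4 0.0098 and Rps15 0.017, and without scaling Rpl4 0.00098 and Rps15 0.0057. Rps4l became -0.0012 without the count filter. The covariate gave Rpl3 -0.0067 and Rps4l -0.0068, and the replicate block Rpl3 -0.016 and Rpl7l1 -0.0055. Without control 2 and 4, Rpl10l became 0.12, Rpl36al 0.0083, Rpl4 0.0075, Rps15 0.021 and Rps4l -4.8e-05; without control 5 as well, Rpl10l 0.21, Rpl3l 0.025, Rpl4 0.028, Rplp1 0.0035, Rps15 0.040 and Rps4l -0.00010. Without single embryos Rpl10l ran from -0.26 to 0.043, Rpl3 -0.032 to 0.029, Rpl36al -0.067 to 0.012, Rpl4 -0.054 to 0.0042, Rpl7l1 -0.0076 to 0.048, Rps15 -0.059 to 0.015 and Rps4l -0.043 to 0.025. The median level per kilobase was 167 CPM by longest coding transcript. Rpl24, Rpl3l and Rpl6l had at most 82 counts in any embryo and the widest intervals, with variances 5.80, 13.7 and 1.31 times their means.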
